A study of Sus scrofa with 12 samples.

Results

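The genes of glucose uptake, glycolysis and glycogen handling were described in pig heart after a reperfused infarct. The list of 39 genes was given by name, and it was chosen with earlier results of these data known. The gene table paired 36 of the 39 symbols with an identifier among the 35682 genes counted, and 34 of the 36 had enough reads to be tested, among 13844 genes tested in all. SLC2A3, SLC16A1 and PGM1 had no identifier in that table and were not analysed here, and PFKFB1 and ENO2 were under the count filter. All animals were female Yorkshire pigs of 10 to 12 weeks at purchase, and all had a 60 minute balloon occlusion of the left anterior descending artery. From day 9 after the injury all received tacrolimus at 0.75 mg/kg/day, mycophenolate mofetil at 500 mg/day and prednisolone at 20 mg/day. At a thoracotomy on day 14 each received either vascular organoids of human endothelial progenitor and smooth muscle cells, held in place with fibrin glue, or fibrin glue alone, and the hearts were taken 4 weeks later. RNA was sequenced from 12 libraries of 6 pigs, 1 from the border zone beside the infarct and 1 from the posterior wall, the remote zone, of each animal. The sample labels do not say which animal received which treatment, so each region was described over all 6 animals, which are named by number (1022, 1322, 1323, 1623, 1922 and 3622). The comparison addresses how the transcripts of glucose use differed between tissue next to the infarct and tissue far from it, and values are listed in this order of animals throughout.

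Glucose enters the cardiomyocyte through the transporters GLUT1, which is always at the membrane, and GLUT4, which insulin moves there. Hexokinase traps it as glucose 6-phosphate, which is stored as glycogen or passed through the steps of glycolysis to pyruvate, and lactate dehydrogenase turns pyruvate into lactate and back. Most of these steps have several enzyme forms from separate genes, which differ in the tissues they are known from. The healthy adult heart burns mainly fatty acids, and glycolytic genes as a group are targets of the hypoxia factor HIF-1.

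Counts summed to 15130210 to 30526110 per border zone library and to 20091415 to 31618680 per remote zone library. At this depth ENO3 had at least 16785 reads in every library, while HK3 had 2 in its lowest. Floors in this text cover counting error only, since PCR copies were not told apart. Values are given in CPM, the count of a gene relative to its library total after TMM normalization, and SE stands for standard error. The border zone libraries differed in tissue makeup. The 13 cardiomyocyte markers tested, such as TNNT2 and MYH7, had a summed level of 14300 to 80410 CPM in the border zone and 68540 to 113700 CPM in the remote zone, and the 13 fibroblast and matrix markers 4074 to 80480 CPM and 1353 to 3365 CPM. The lowest cardiomyocyte sum and the highest matrix sum were both those of the border zone library of animal 1022. Where a fold change of a member moved by over 1.5 times or changed sign with an animal left out, the lowest or the highest such value, or both, is given beside it. The border zone library of animal 3622, with the smallest total, listed 28024 genes, while the other libraries listed at most 20148. The share of counts on the protein genes of the mitochondrial genome that had an identifier was 13.6% to 33.5% for remote zone libraries and 5.69% to 17.3% for border zone libraries. The highest shares were those of the remote zone libraries of animals 3622 (33.5%, TMM factor 0.671) and 1322 (21.4%, 0.814), which also had the highest CPM of GAPDH, PGAM2 and ENO3. With those mitochondrial genes left out of the counts, the median log2 fold change of the members was -0.16. The part of the mitochondrial share in the values was otherwise not tested. In bulk tissue, fewer cells of a type and less RNA per cell cannot be told apart.

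In the remote zone, the transcripts of glycolysis ran over several orders of magnitude per length. On the scale of CPM per kilobase of transcript, GAPDH led with a median of 7836, followed by ALDOA at 2893, ENO3 at 2357, TPI1 at 737.7, PKM at 654.3 and PFKM at 355.8. These encode most of the steps from phosphofructokinase to pyruvate. The glycogen phosphorylases PYGB and PYGM stood at 270.1 and 250.9, ahead of PGAM2 at 246.8, GPI at 241.3 and PGK1 at 166.5 CPM per kilobase. At the bottom of the genes tested stood HK2 at 2.99, PFKFB4 at 1.93, PFKFB3 at 0.590 and HK3 at 0.296 CPM per kilobase. Together the matched genes took 2.54% to 2.95% of all counts in the remote zone (median 2.74%) and 1.05% to 2.72% in the border zone (median 2.31%), with the lowest share in the border zone library of animal 1022.

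None of the 34 genes passed the test between the regions. In the quasi-likelihood test of edgeR, adjusted over all genes by Benjamini and Hochberg's method, 0 of 34 had an adjusted p under 0.05, while 2.07% of all genes tested did. With the animal as a block the count was again 0 of 34, against 0.296% of all genes. The Wald test of DESeq2 called 3 of the 34, against 10.2% of its genes, namely PFKFB3 (higher, DESeq2 adjusted p = 0.0320), TPI1 (lower, 0.0334) and PGAM2 (lower, 0.0380). At an unadjusted edgeR p under 0.05 there were 9 of the 34. Of these HK3, PFKFB3 and ENO1 were higher in the border zone, 3 of 34 (8.82%) against 17% of all genes. SLC2A4, ALDOA, TPI1, GAPDH, PGAM2 and ENO3 were lower, 6 of 34 (17.6%) against 7.78% of all genes.

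With TMM scaling, more of the members had a value below 0 than above it. Their median log2 fold change, border zone over remote zone, was -0.16, with 24 of 34 below 0. The median over all genes was 0.04, with 6459 of 13844 below 0. At the border of all 6 animals ALDOA, TPI1, GAPDH, PGAM2, ENO3 and PHKG1 were lower, 6 of 34 (17.6%) against 11.1% of all genes, a count that was 4 with library totals, without TPI1 and PHKG1, and 7 with DESeq2 size factors, with SLC2A4 added. It was 15 without animal 1322 and 6 without any other animal. Higher in all 6 animals were 0 of 34, against 11.7% of all genes, and with library totals 2, ENO1 and LDHA. That count was 2 without animal 1322 and 3 without animal 1323. The libraries of both regions overlapped for each of the 34 genes, where 0.701% of all genes were lower in every border zone library than in any remote zone library and 1.99% were higher. Scaling by library totals in place of TMM moved the median of all genes to 0.32 and that of the members to 0.08, so that the gap of the members to all genes was -0.23, and -0.20 with TMM. The gap was -0.56 in the DESeq2 fit and -0.96 in edgeR with no filter, where the median of all genes, low ones included, was 0.35 and 0.75 and that of the members -0.21 in each. With library totals SLC2A1, HK1, HK2, GPI, PFKL, PFKFB4, UGP2, GYS1, PHKA1 and PHKG1 had values above 0, and with TMM below it. With each animal left out the members' median was between -0.30, without animal 1322, and -0.11, without animal 1022. With each animal left out 0 of 34 were past the edgeR threshold. Among all genes 157 higher and 6 lower were past it without animal 1022, and 0 without animal 3622 or 1623, where the count thus says nothing of the members.

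**Figure D1:**
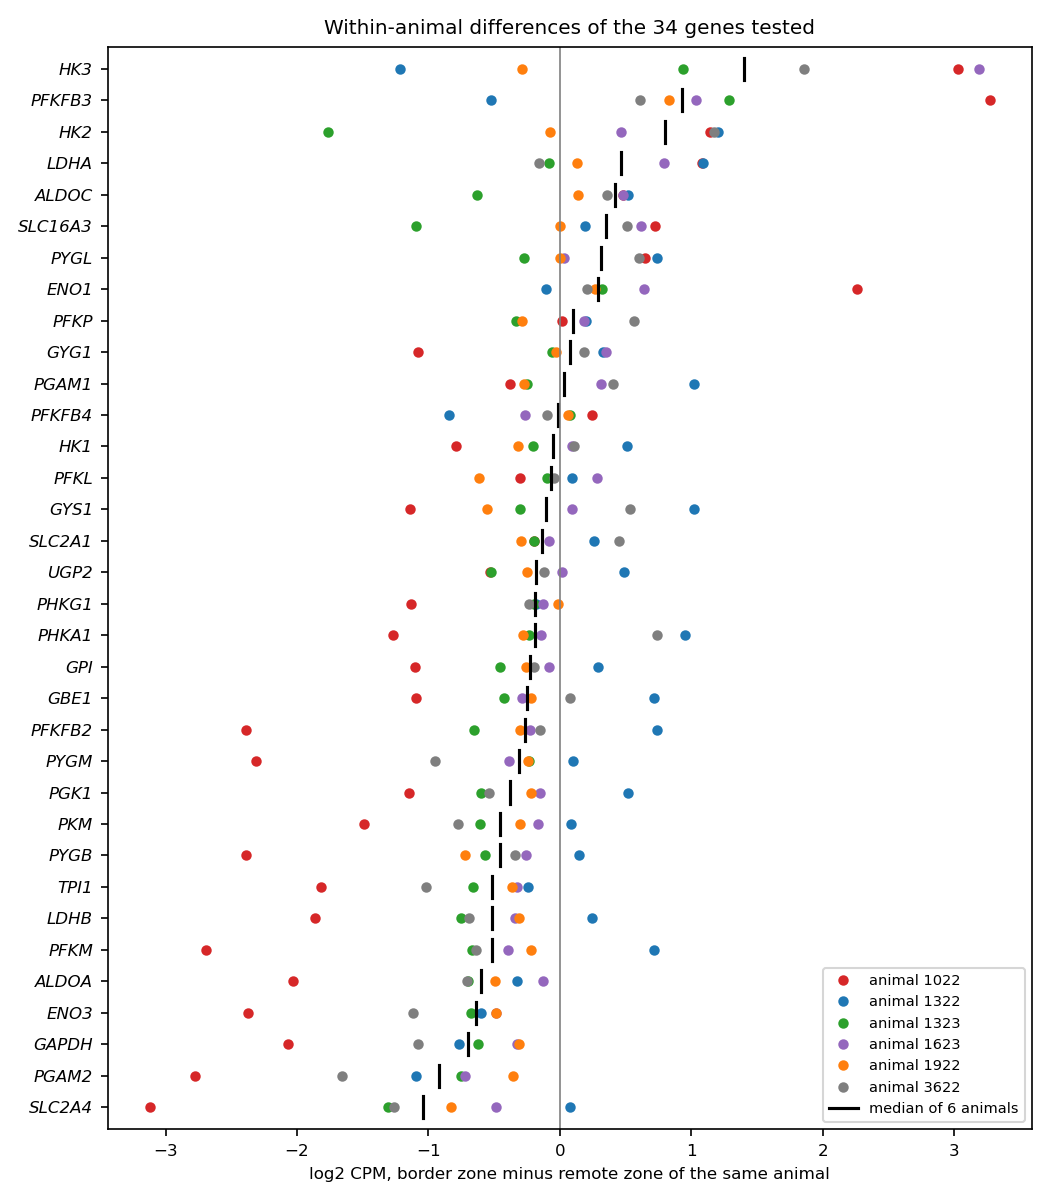
Log2 CPM of the border zone minus that of the remote zone of the same animal (x axis) for each of the 34 genes tested (y axis), with 1 point per animal in 6 colours and a black bar at the median of the 6 animals. The points of animal 1022 lie farthest from 0 for many genes, and SLC2A4, PGAM2, GAPDH and ENO3 have the lowest medians.

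Among the glucose transporters, SLC2A4 had a negative log2 fold change, border zone over remote zone, and that of SLC2A1 was within 1 SE of 0. SLC2A4 (ENSSSCG00000023915, chr12:52628746-52634965, plus strand) encodes GLUT4, the insulin-responsive transporter of muscle and fat. In the order of animals given above, it was at 33.6, 277, 83.2, 155, 151 and 111 CPM in the border zone and 293, 263, 206, 217, 268 and 266 CPM in the remote zone. It was lower at the border in 5 of 6 animals, all but animal 1322, whose border zone value lay within the remote range. The log2 fold change was -0.90 (SE 0.36, edgeR adjusted p = 0.154), and -0.66 without animal 1022. SLC2A1 (ENSSSCG00000059879, chr6:168535398-168561170, plus strand) encodes GLUT1, the basal transporter. It was at 40.3, 47.0, 44.8, 47.1, 26.9 and 37.6 CPM in the border zone and 46.3, 39.1, 51.2, 49.9, 33.0 and 27.6 CPM in the remote zone. The values of both regions covered nearly the same range, with a log2 fold change of -0.02 (SE 0.19, edgeR adjusted p = 0.959, -0.0968 without animal 3622 and 0.0126 without animal 1922), which was 0.24 with library totals.

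Of the hexokinases, which phosphorylate glucose on entry, HK1 was by far the most abundant in both regions. HK1 (ENSSSCG00000010253, chr14:72383328-72460927, plus strand) was at 291, 569, 459, 521, 438 and 479.5 CPM in the border zone and 503, 399, 528, 489, 545 and 444 CPM in the remote zone. The border zone of animal 1022 was the lowest library and the others overlapped, with a log2 fold change of -0.08 (SE 0.19, edgeR adjusted p = 0.833, -0.21 without animal 1322 and 0.0321 without animal 1022). HK2 (ENSSSCG00000008261, chr3:68155656-68231187, minus strand), the insulin-regulated muscle form, was at 17.6, 22.4, 17.5, 23.9, 8.54 and 5.38 CPM in the border zone and 7.92, 9.64, 59.7, 17.4, 8.99 and 2.34 CPM in the remote zone. It was higher at the border in 4 of 6 animals, but the highest library of all was the remote zone of animal 1323. Its log2 fold change was -0.16 (SE 0.61, edgeR adjusted p = 0.900, -0.41 without animal 1322 and 0.71 without animal 1323), 0.38 with the animal as a block, so that its sign depended on the fit. HK3 (ENSSSCG00000014048, chr2:81042401-81060832, plus strand), a form known from myeloid cells, was at 8.36, 0.390, 1.59, 1.37, 0.583 and 4.58 CPM in the border zone and 0.950, 1.02, 0.790, 0.0763, 0.728 and 1.20 CPM in the remote zone. Its lowest library held 2 counts, and the highest border zone libraries were those of animals 1022 and 3622. HK3 had the largest log2 fold change of the 34 genes, 1.83 (SE 0.73, edgeR adjusted p = 0.149), with higher values in 4 of 6 animals and 1.15 without animal 1022. The 10 macrophage markers tested all had a positive log2 fold change, with 0 of 10 past the edgeR threshold, a median of 1.49 and a summed level of 136.6 to 1562 CPM against 126.5 to 267.4 CPM in the remote zone. Their part in the values of HK3 was not tested.

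Phosphofructokinase commits glucose to glycolysis, and the PFKFB enzymes make and break down its activator, fructose 2,6-bisphosphate. PFKM (ENSSSCG00000021129, chr5:78475473-78525052, plus strand), the muscle form, was at 202, 1206, 688, 725, 988 and 563 CPM in the border zone and 1306, 734, 1094, 954, 1150 and 878 CPM in the remote zone. It was lower at the border in 5 of 6 animals and higher in animal 1322, with a log2 fold change of -0.48 (SE 0.33, edgeR adjusted p = 0.386, -0.77 without animal 1322 and -0.21 without animal 1022). PFKP (ENSSSCG00000011158, chr10:67022652-67082336, minus strand), the platelet form, was at 61.5, 47.5, 36.7, 53.4, 45.8 and 40.5 CPM in the border zone and 60.7, 41.4, 46.4, 47.0, 56.0 and 27.4 CPM in the remote zone. Its regions overlapped over nearly their whole range, with a log2 fold change of 0.03 (SE 0.19, edgeR adjusted p = 0.934, -0.0381 without animal 3622 and 0.0999 without animal 1922). PFKL, the liver form, had a median of 119 CPM (101 to 132) in the border zone and 119.8 CPM (106 to 167) in the remote zone, at a log2 fold change of -0.13 (SE 0.16, edgeR adjusted p = 0.647, -0.20 without animal 1623 and -0.0244 without animal 1922).

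PFKFB3 (ENSSSCG00000011133, chr10:64776315-64859118, minus strand), the inducible form with the strongest bias to making the activator, was at 24.4, 2.09, 10.2, 5.08, 4.32 and 4.22 CPM in the border zone and 2.46, 3.05, 4.12, 2.44, 2.39 and 2.74 CPM in the remote zone. It was higher at the border in 5 of 6 animals, all but animal 1322, and the border zone of animal 1022 stood far above the next library, that of animal 1323. The log2 fold change was 1.55 (SE 0.49, edgeR adjusted p = 0.0917). This was the smallest adjusted p of the 34 genes, and the value was 0.81 without animal 1022 (edgeR adjusted p = 0.275). With library totals it was 1.94 (edgeR adjusted p = 0.0379). PFKFB2, the heart form, had a median of 23.1 CPM (7.60 to 33.4) in the border zone and 27.4 CPM (17.8 to 41.3) in the remote zone, at a log2 fold change of -0.42 (SE 0.30, edgeR adjusted p = 0.410, -0.64 without animal 1322 and -0.14 without animal 1022). PFKFB4 had a log2 fold change of -0.16 (SE 0.29, edgeR adjusted p = 0.769, -0.25 without animal 1022 and -0.0202 without animal 1322). PFKFB1, the liver and muscle form, had 0 counts in all remote zone libraries, where 3 counts correspond to 0.0988 to 0.201 CPM, and its highest value, in the border zone of animal 3622, was 2.69 CPM.

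The steps from fructose bisphosphate to phosphoglycerate carried 3 of the 6 genes that were lower at the border in every animal. ALDOA (ENSSSCG00000032556, chr3:18246036-18260167, plus strand), the aldolase of muscle, was at 1202, 4765, 2664, 3370, 3223 and 3487 CPM in the border zone and 4909, 5979, 4320, 3686, 4550 and 5677 CPM in the remote zone. The border zone was the lower library in all 6 animals, with a log2 fold change of -0.64 (SE 0.29, edgeR adjusted p = 0.193). ALDOC (ENSSSCG00000017759, chr12:44823376-44827273, minus strand), an aldolase best known from brain, was at 12.1, 33.6, 12.9, 6.63, 28.0 and 7.21 CPM in the border zone and 8.67, 23.4, 20.1, 4.73, 25.5 and 5.62 CPM in the remote zone. It varied more between animals than between regions and was higher at the border in 5 of 6 animals, with a log2 fold change of 0.19 (SE 0.50, edgeR adjusted p = 0.850, 0.0528 without animal 1322 and 0.32 without animal 1323). TPI1, triosephosphate isomerase, had a median of 528 CPM (244 to 744) in the border zone and 854 CPM (691 to 982) in the remote zone. With TMM scaling it was lower at the border in 6 of 6 animals, with a log2 fold change of -0.66 (SE 0.24, edgeR adjusted p = 0.123). GAPDH (ENSSSCG00000000694, chr5:64129678-64135194, minus strand), the dehydrogenase that yields NADH, was at 2487, 9885, 6622, 7479, 9525 and 8739 CPM in the border zone and 10420, 16850, 10210, 9371, 11820 and 18490 CPM in the remote zone. Of the 6 border zone libraries, those of animals 1322 and 1922 were above the lowest remote zone library, that of animal 1623. Its log2 fold change was -0.79 (SE 0.33, edgeR adjusted p = 0.167), lower in 6 of 6 animals, and -0.66 without animal 1022. PGK1, which makes the first ATP of the pathway, had a log2 fold change of -0.30 (SE 0.21, edgeR adjusted p = 0.387, -0.51 without animal 1322 and -0.18 without animal 1022).

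Phosphoglycerate mutase and enolase each have a muscle form and a general form. Both muscle forms were lower at the border than in the remote zone of all 6 animals, and neither passed the edgeR test. PGAM2 (ENSSSCG00000016720, chr18:48693832-48712787, plus strand), the muscle mutase, was at 66.9, 416, 284, 242, 470.3 and 296 CPM in the border zone and 458, 889, 478, 399.9, 603 and 932 CPM in the remote zone. It was lower at the border in 6 of 6 animals, and it had the most negative log2 fold change of the 34 genes, -1.08 (SE 0.38, edgeR adjusted p = 0.119). Without animal 1022 the value was -0.95 (edgeR adjusted p = 0.129), and with the animal as a block the adjusted p was 0.0829 by edgeR. PGAM1, the general form, had a median of 118 CPM (82.4 to 174) in the border zone and 116 CPM (65.2 to 158) in the remote zone, ranges that overlap, at a log2 fold change of 0.11 (SE 0.24, edgeR adjusted p = 0.808, -0.0395 without animal 1322 and 0.19 without animal 1022).

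ENO3 (ENSSSCG00000017904, chr12:51954614-51959991, minus strand), the beta enolase of muscle, was at 555, 2946, 1958, 2262, 2553 and 2112 CPM in the border zone and 2879, 4458, 3129, 3174, 3585 and 4579 CPM in the remote zone. The border zone was lower in 6 of 6 animals, and the border zone of animal 1322 reached above the lowest remote zone library. The log2 fold change of ENO3 was -0.82 (SE 0.33, edgeR adjusted p = 0.152). ENO1 (ENSSSCG00000022343, chr6:69385879-69401664, minus strand), the alpha enolase of most tissues, was at 457, 131, 138, 158, 122 and 153 CPM in the border zone and 95.1, 140.2, 110.4, 102, 101 and 133 CPM in the remote zone. Here the border zone was higher in 5 of 6 animals, and the library of animal 1022 stood far above all others. Its log2 fold change was 0.77 (SE 0.31, edgeR adjusted p = 0.157), and 0.25 without animal 1022 (edgeR adjusted p = 0.415). ENO2, the neuronal form, stayed under the filter, with at most 51 counts in a library and 1.69 CPM. PKM, pyruvate kinase, had a median of 1284 CPM (684 to 1886) in the border zone and 1767 CPM (1606 to 1958) in the remote zone. It was lower at the border in 5 of 6 animals, with a log2 fold change of -0.48 (SE 0.23, edgeR adjusted p = 0.215).

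The log2 ratio of both enolases was lower in every border zone library than in any remote zone library, as given further on, and the 250 bases before the annotated start of both genes are shown for that reason. They were read from the RefSeq genome Sscrofa11.1, the build of the counts, upstream of the outermost RefSeq exon of each gene. Capitals mark each match to ACGTG or GCGTG on either strand, the core of the element that HIF-1 and other factors can bind. The windows lie at chr6:69401665-69401914, minus strand (ENO1) and chr12:51959992-51960241, minus strand (ENO3).
ENO1: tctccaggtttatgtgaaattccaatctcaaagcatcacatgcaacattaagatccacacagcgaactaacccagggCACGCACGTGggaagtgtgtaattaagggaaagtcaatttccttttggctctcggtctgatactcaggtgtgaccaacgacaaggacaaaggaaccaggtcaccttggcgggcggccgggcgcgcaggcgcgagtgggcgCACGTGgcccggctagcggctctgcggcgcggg
ENO3: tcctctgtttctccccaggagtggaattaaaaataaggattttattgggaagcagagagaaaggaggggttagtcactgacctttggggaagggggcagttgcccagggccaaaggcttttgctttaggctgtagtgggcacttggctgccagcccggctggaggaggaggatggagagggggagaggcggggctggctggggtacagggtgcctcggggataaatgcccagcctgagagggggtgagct
The ENO1 window held 5 matches in 2 stretches of capitals, and its 2 copies of CACGTG each count as a match on both strands. The ENO3 window held 0, which says only that these letters are not in this window. Of the 39 genes, 18 had at least 1 match, and of the windows of the same length before 19531 genes 43.5% did. CACGTG was in 3 of the 39 windows, those of ENO1, PKM and PYGB, and in 6.40% of all. For lactate dehydrogenase, whose ratio did not overlap between the regions either, the LDHA window held 0 matches and that of the spliced LDHB locus 2, and they are not printed because the locus counted as LDHB is uncertain. The GC content had a median of 60.8% in the 39 windows and 57.6% in all.

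Lactate dehydrogenase is a tetramer of A and B subunits, of which LDHB prevails in heart. LDHA (ENSSSCG00000013366, chr2:40814163-40827284, minus strand) was at 155, 91.4, 89.1, 129, 55.5 and 66.8 CPM in the border zone and 72.8, 42.9, 94.3, 74.3, 50.6 and 74.5 CPM in the remote zone. It was higher at the border in 4 of 6 animals, with a log2 fold change of 0.52 (SE 0.26, edgeR adjusted p = 0.235). LDHB (ENSSSCG00000032557) was at 21.4, 97.5, 68.3, 70.2, 59.2 and 51.6 CPM in the border zone and 78.3, 82.5, 115, 88.7, 73.4 and 83.6 CPM in the remote zone. It was lower at the border in 5 of 6 animals, with a log2 fold change of -0.50 (SE 0.27, edgeR adjusted p = 0.263). The level of LDHB is uncertain. RefSeq gives this name to a spliced locus at chr5:51810932-51831218 and to an intronless copy, whose match at chr2:12988950-12990035 covers 95.8% of the coding sequence at 99.3% identity. The files do not say which locus was counted under this identifier, and how reads that match both were treated is not stated. LDHB was the 1 gene of the 39 with such a copy at 95% identity or more over at least 80% of the coding sequence. SLC16A3, the lactate exporter MCT4, had a median of 11.2 CPM (3.56 to 27.3) in the border zone and 8.85 CPM (4.75 to 16.5) in the remote zone, at a log2 fold change of 0.33 (SE 0.42, edgeR adjusted p = 0.667, 0.14 without animal 1022).

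None of the glycogen genes passed the test. PYGM, the muscle glycogen phosphorylase, had a median of 513 CPM (202 to 820.4) in the border zone and 811 CPM (629.6 to 1007) in the remote zone. Lower in 5 of 6 animals, it had a log2 fold change of -0.56 (SE 0.30, edgeR adjusted p = 0.258, -0.32 without animal 1022). PYGB, the brain form, which is also abundant in heart, had a median of 969 CPM (269.7 to 1574) in the border zone and 1415 CPM (875 to 1715) in the remote zone. PYGB had a log2 fold change of -0.53 (SE 0.34, edgeR adjusted p = 0.340, -0.33 without animal 1022). PYGL, the liver form, was the 1 phosphorylase with a positive value, at 0.29 (SE 0.20, edgeR adjusted p = 0.377), higher in 5 of 6 animals. Of the enzymes that build glycogen, GYS1, the muscle glycogen synthase, had a log2 fold change of -0.08 (SE 0.23, edgeR adjusted p = 0.857, -0.30 without animal 1322 and 0.13 without animal 1022). GYG1, glycogenin, which primes the chain, had 0.00 (SE 0.21, edgeR adjusted p = 0.996, -0.0723 without animal 1322 and 0.14 without animal 1022). GBE1, the branching enzyme, had -0.23 (SE 0.26, edgeR adjusted p = 0.611, -0.40 without animal 1322 and -0.0926 without animal 1022), and UGP2, which makes UDP-glucose, -0.15 (SE 0.18, -0.28 without animal 1322 and -0.0905 without animal 1022). The phosphorylase kinase subunits PHKA1 and PHKG1 had -0.10 (SE 0.28, -0.27 without animal 1322 and 0.0952 without animal 1022) and -0.27 (SE 0.20, -0.16 without animal 1022 and 0.0072 with library totals). PHKG1 was lower at the border in 6 of 6 animals, with a within-animal log2 difference between -1.13 and -0.0134. GPI, the isomerase between hexokinase and phosphofructokinase, had -0.25 (SE 0.20, edgeR adjusted p = 0.452, -0.40 without animal 1322 and -0.13 without animal 1022).

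The balance of both forms within a library does not depend on how that library was scaled, so it was compared within each animal for 8 pairs. The first-named form was lower relative to the other in the border zone of all 6 animals at 5 of the 8 steps. It is the form known from heart or skeletal muscle, and the part of the tissue mix in the ratios was not tested. How often ratios of other genes go the same way in all 6 animals, or do not overlap between the regions, was not measured here. As the mean difference of the log2 ratio of counts, border zone minus remote zone, ENO3 over ENO1 was -1.56 ± 1.54 (SD, n = 6), PGAM2 over PGAM1 -1.37 ± 0.96 (SD, n = 6), SLC2A4 over SLC2A1 -1.15 ± 1.03 (SD, n = 6), LDHB over LDHA -1.10 ± 0.94 (SD, n = 6) and ALDOA over ALDOC -0.96 ± 0.83 (SD, n = 6). Each of these 5 had p = 0.03125 in a two-sided exact permutation test of sign changes within animals, which is as small as 6 animals can give, and 0.05 once adjusted over the 8 ratios. An adjusted p of 0.05 in this exact permutation test does not pass a threshold of under 0.05. The paired test reaches its smallest value wherever all 6 differences have the same sign, whatever their size. It thus adds nothing to the count of animals. With 5 of the 8 ratios at that smallest value, the adjusted value could not be lower, so missing the threshold decides nothing about these 5. Compared as 12 unpaired libraries, ENO3 over ENO1 and LDHB over LDHA had an adjusted p of 0.00866 in an exact permutation test. The other 6 ratios did not pass. That unpaired test ignores the pairing of libraries by animal, and its p is at its smallest wherever the regions do not overlap. All pairs were chosen with earlier results of these data known. ENO3 over ENO1 and PGAM2 over PGAM1, with the largest mean differences, were not in the rule that chose the genes. Neither test allows for that choice.

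The other pairs did not go the same way in all 6 animals. PFKM over PFKP was lower in 4 of 6 animals, by a mean of -0.71 ± 1.14 (SD, n = 6; exact permutation test, p = 0.219, adjusted p = 0.292). HK2 over HK1 was higher in 5 of 6 animals, with a mean of 0.46 ± 1.16 (SD, n = 6; exact permutation test, p = 0.375, adjusted p = 0.429) and a difference of -1.57 in animal 1323, without which the mean was 0.87 (exact permutation test, adjusted p = 0.0833). PYGM over PYGB was higher in 3 and lower in 3 animals, with a mean of 0.02 ± 0.38 (SD, n = 6; exact permutation test, p = 0.938, the same after adjustment). Of the 5 pairs named in the rule that chose the genes, 3 were among those lower in all animals, and ENO3 over ENO1, PGAM2 over PGAM1 and PYGM over PYGB were added here.

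For enolase and lactate dehydrogenase, the libraries of both regions did not overlap. The log2 ratio of ENO3 to ENO1 was 0.28, 4.50, 3.83, 3.84, 4.39 and 3.78 in the border zone and 4.92, 4.99, 4.82, 4.97, 5.15 and 5.11 in the remote zone. The remote zone libraries thus lay within a narrow band, and every border zone library lay below it, that of animal 1022 farthest. The log2 ratio of LDHB to LDHA was -2.85, 0.09, -0.38, -0.88, 0.09 and -0.37 in the border zone and 0.10, 0.94, 0.29, 0.26, 0.54 and 0.17 in the remote zone. Here the highest border zone libraries, those of animals 1322 and 1922, came to just below the lowest remote zone library, that of animal 1022, and the uncertain level of LDHB bears on all of these. Without animal 1022 the mean differences were -0.94 for ENO3 over ENO1, -1.16 for PGAM2 over PGAM1, -0.79 for SLC2A4 over SLC2A1, -0.73 for LDHB over LDHA, -0.64 for ALDOA over ALDOC, -0.31 for PFKM over PFKP and 0.16 for HK2 over HK1. With 5 animals the exact permutation test cannot give a p below 0.0625.

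**Figure D2:**
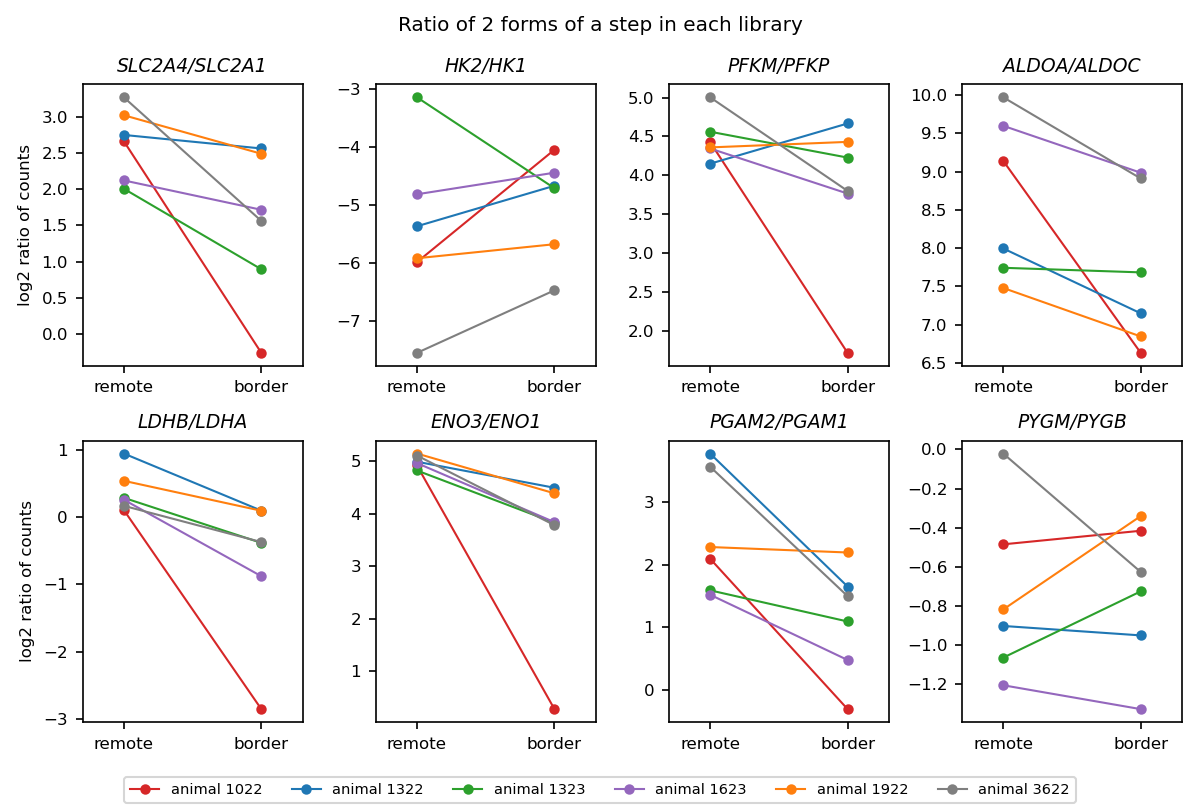
Log2 ratio of the counts of 2 forms of a step (y axis, a separate scale in each panel) in the remote zone and the border zone (x axis), with a line joining both libraries of each of the 6 animals. All 6 lines go down for SLC2A4/SLC2A1, ALDOA/ALDOC, LDHB/LDHA, ENO3/ENO1 and PGAM2/PGAM1, and lines cross or go both ways in the other 3 panels.

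Per kilobase, the muscle forms ENO3, PGAM2, SLC2A4, PFKM and ALDOA had higher medians than the other forms of their steps in both regions. The muscle forms HK2 and PYGM had lower medians than HK1 and PYGB in both regions. ENO3 made up a median of 97.6% of enolase transcripts in the remote zone and 94.8% in the border zone, and ENO1 2.42% and 5.19%, with 39.1% in the border zone of animal 1022. PGAM2 made up 79.3% of the mutase in the remote zone and 67.3% in the border zone, and SLC2A4 87.4% and 76.9% of the 2 transporters measured. In the border zone of animal 1022, SLC2A4 came to 47.1% and PGAM2 to 40.6%, below SLC2A1 and PGAM1. Of lactate dehydrogenase LDHB made up 62.7% in the remote zone and 51.8% in the border zone, where LDHA was the larger part in animals 1022 and 1623. PFKM held 86.6% and 82.3% of phosphofructokinase, HK1 97.5% and 95.5% of hexokinase and ALDOA 99.7% and 99.4% of aldolase. Among the PFKFB genes, PFKFB2 made up 77.6% in the remote zone and 64.2% in the border zone, and PFKFB3 6.16% and 11.5%, with 58.4% in the border zone of animal 1022. For glycogen phosphorylase, PYGM and PYGB shared the step in both regions, PYGM at 45.8% and 45.0% and PYGB at 51.2% and 46.1%. The shares carry no test of their own, since they restate the ratios with lengths.

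**Figure D3:**
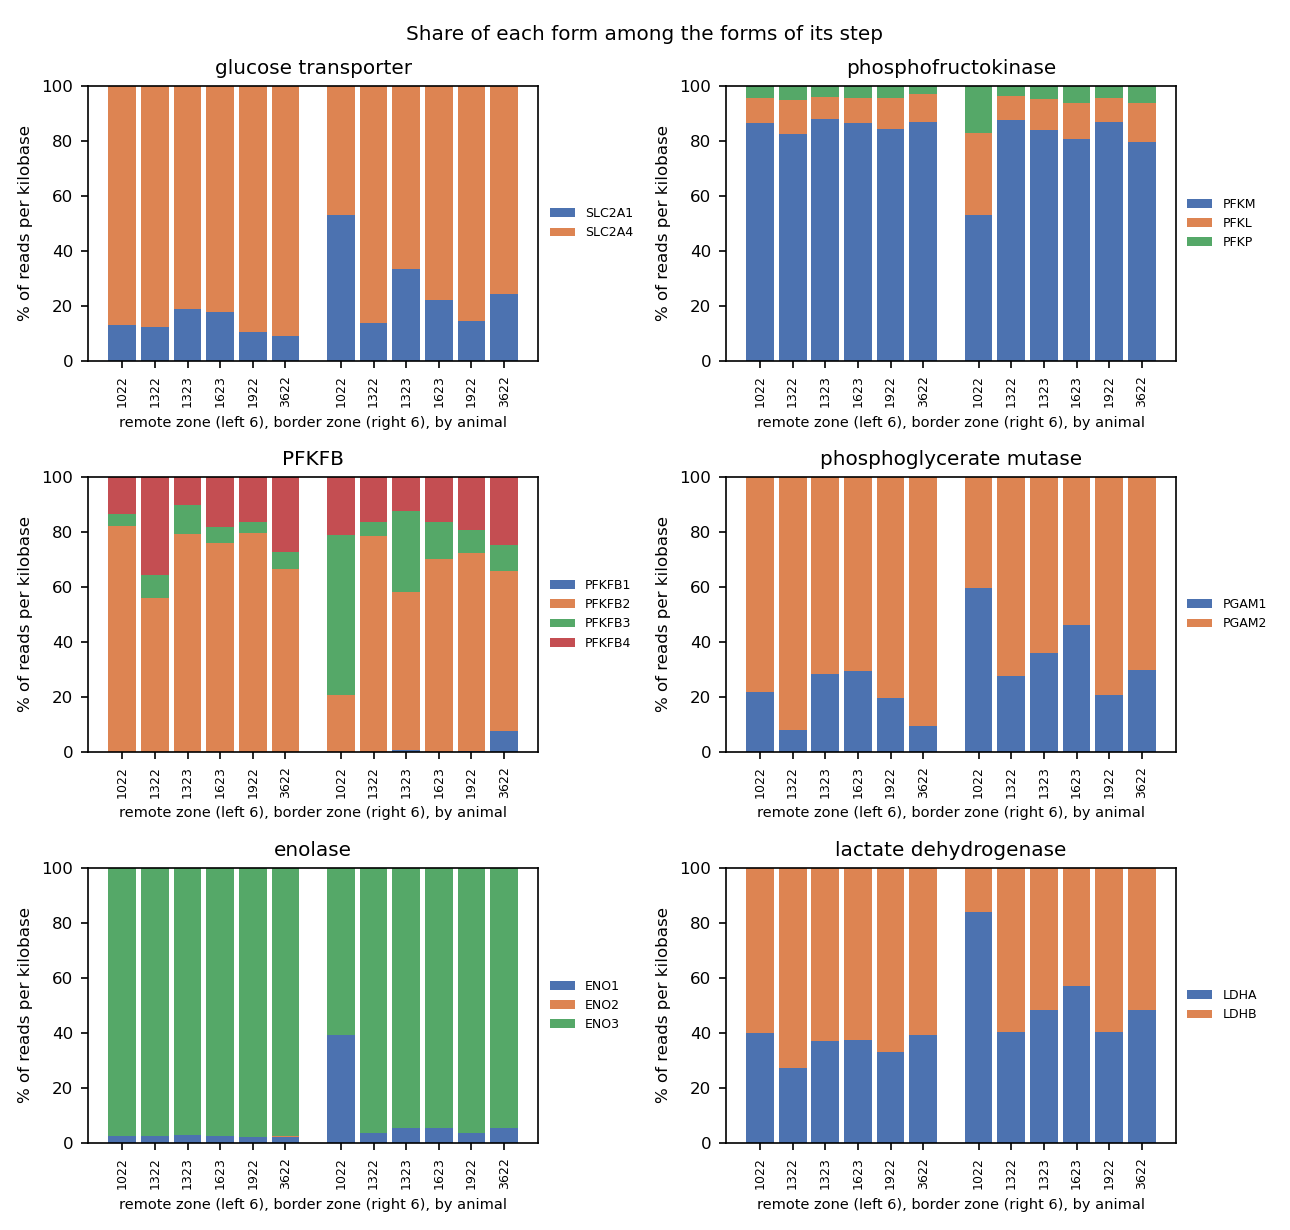
Share of each form (y axis, % of reads per kilobase) among the measured forms of 6 steps, as stacked bars that add to 100% for each library (x axis, by animal, remote zone left and border zone right). The border zone bar of animal 1022 differs most from the others, with ENO1 at 39.1% of enolase and PFKFB3 at 58.4% of the PFKFB genes.

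The animals differed in how far their border zone stood from their remote zone, and tissue markers moved along. The median within-animal difference in log2 CPM over the 34 genes was -1.10 in animal 1022, -0.44 in 1323, -0.28 in 1922, -0.11 in 3622, -0.10 in 1623 and 0.22 in 1322, while the median over all genes was between -0.04 and 0.14. The number of the 34 genes that were lower in the border zone was 24 in animal 1022, 30 in 1323, 27 in 1922, 19 in 3622, 19 in 1623 and 10 in 1322. The mean difference over the cardiomyocyte markers was -2.14 in animal 1022, -0.43 in 1323, -0.23 in 1922, -0.52 in 3622, -0.21 in 1623 and 0.01 in 1322. Animal 1022 was thus the lowest and animal 1322 the highest in the glucose gene median and in the cardiomyocyte markers alike. The mean difference over the fibroblast and matrix markers was 4.61 in animal 1022, the highest, and 0.98 in animal 1322, the lowest, with 1.26 to 2.28 in the others. By log2 fold change 1 of the 13 cardiomyocyte markers was above 0, with a median of -0.51 and 0 past the edgeR threshold, and 13 of 13 matrix markers had higher values, with a median of 2.90 and 11 past it. The part of the tissue mix in the values of the glucose genes was not tested.

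**Figure D4:**
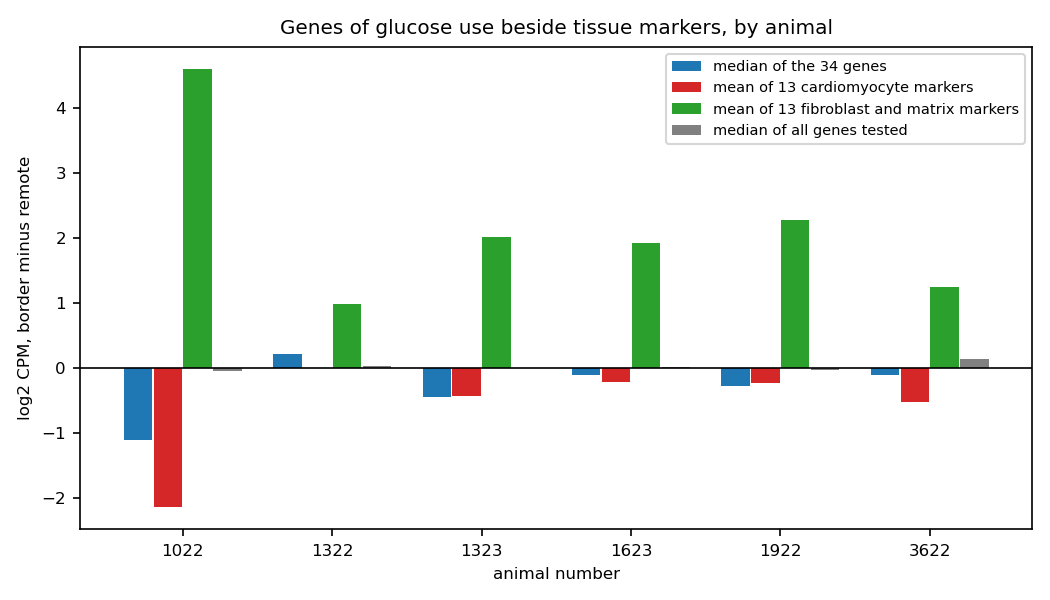
Border zone minus remote zone difference in log2 CPM (y axis) for each of the 6 animals (x axis), as bars from 0 for the median of the 34 glucose genes, the mean of 13 cardiomyocyte markers, the mean of 13 fibroblast and matrix markers and the median of all 13844 genes tested. Animal 1022 has the lowest cardiomyocyte and glucose gene bars and the highest matrix bar, and animal 1322 has a glucose gene bar above 0.

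Markers of other cells in the tissue were measured beside these values. Of the smooth muscle and pericyte list, 8 of 10 had a positive log2 fold change (median 1.10), and of the endothelial list 7 of 10 (median 0.12). The summed level was 8304 to 17190 CPM against 8423 to 12810 CPM for the smooth muscle list. For the endothelial list it was 438.4 to 625.6 CPM against 328.4 to 766.3 CPM. A sum is weighted to the most abundant genes of a list. The mean log2 CPM was higher at the border in 5 of 6 animals for the smooth muscle list and in 3 for the endothelial list. The 7 lymphocyte markers tested had a median log2 fold change of 0.59, the 5 adipocyte markers 1.08, the 3 erythroid markers -0.11 and the 1 neutrophil marker 2.39. None of these 6 lists had a gene past the edgeR threshold. Of skeletal muscle markers, 5 had an identifier and 0 passed the filter, with a summed level of at most 2.26 CPM in the border zone and 0.533 CPM in the remote zone.

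Other genes of glucose use, a list of 50 for transport, pyruvate oxidation, the pentose phosphate and hexosamine pathways and glycogen control, were read from the same fit. Of the 43 tested, 1 was past the threshold, against 2.07% of all genes, a share close to that background. It was GFPT2, and it was higher in the border zone. GFPT2 makes glucosamine 6-phosphate, the entry to the hexosamine pathway. It was at 19.6, 1.70, 8.30, 4.12, 7.38 and 7.40 CPM in the border zone and 1.43, 1.60, 2.24, 1.72, 2.24 and 2.27 CPM in the remote zone, higher in 6 of 6 animals, although the border zone of animal 1322 lay within the remote range. The log2 fold change was 2.08 (SE 0.44, edgeR adjusted p = 0.0338), with an adjusted p of 0.0798 by edgeR with the animal as a block and 0.000527 by DESeq2. Without animal 1022 it was 1.52 (edgeR adjusted p = 0.0785), and with each animal left out the edgeR adjusted p was between 0.0286 and 0.138. The median log2 fold change of the 43 was -0.07, with 18 above 0 and 25 below. Of all 13844 genes tested, 7385 were above 0 and 6459 below.

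Among those that missed the threshold, SLC2A10, a transporter of the secretory pathway, and GYG2, the liver glycogenin, had log2 fold changes of 1.57 (edgeR adjusted p = 0.0788) and 1.23 (0.0840). Without animal 1022 these were 1.03 (edgeR adjusted p = 0.209) and 0.73 (0.235). The most negative values were those of LDHD, the D-lactate dehydrogenase, MPC2, a subunit of the mitochondrial pyruvate carrier, and PDK2, a kinase that inhibits pyruvate dehydrogenase. Theirs were -0.86 (edgeR adjusted p = 0.154), -0.74 (0.162) and -0.59 (0.201), and all 3 were lower at the border in 6 of 6 animals. MPC1, BSG and STBD1 had no identifier and were not analysed here, and HKDC1, FBP2 and GYS2 were among those under the filter.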

How the data were processed

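RNA-seq was analysed from 12 libraries of pig heart, 6 per region, mapped to region and animal by their titles. The authors made poly(A), nondirectional libraries, sequenced 150 bp paired ends, checked them with FastQC 0.12.1 and MultiQC 1.17, aligned them to Sscrofa11.1 with Ensembl release 113 by STAR 2.7.10a and counted reads per gene with featureCounts 2.16.1. The deposited values are these raw counts on 35682 genes. Options for reads that match several places are not given in the sources used here, nor is whether reads of the human organoid cells were separated from pig reads. Because the libraries were nondirectional, reads of genes that overlap on opposite strands cannot be told apart. Of the 34 genes tested, 9 share 27 to 1161 exon bases with such a gene, UGP2 (1161, with VPS54), GAPDH and PFKM among them.

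Counts were filtered by filterByExpr, scaled by TMM and tested with edgeR 4.0.16 (robust quasi-likelihood, region as the only term) in R 4.3.3 with limma 3.58.1, with Benjamini-Hochberg adjustment over all 13844 genes and a threshold of 0.05. Standard errors are the log2 fold change over the square root of F. DESeq2 1.42.0 was an alternative. Log2 CPM used a prior count of 2, and ratios added 0.5 to each count. Within-animal ratios were tested by a two-sided exact permutation test over the 64 sign orders. Python 3.11.15, pandas 2.3.3, NumPy 2.4.6 and SciPy 1.17.1 were used, with BLAST 2.17.0 for gene copies. Transcript lengths, coordinates and sequences are those of the RefSeq gene of the same symbol on the same build, where the length is the median over the transcripts of a gene. Symbols were paired with 15623 of the 35682 identifiers. The steps were tested on simulated data.

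The genes, the pairs, the related genes and the marker lists (cardiomyocyte, fibroblast and matrix, endothelial, smooth muscle and pericyte, macrophage, lymphocyte, neutrophil, erythroid, adipocyte and skeletal muscle) were chosen with earlier results of these data known. Values in every library are given for the pairs of the rule and for the 4 genes with the largest and the 4 with the most negative log2 fold change. Other members are given by range, fold change or count, and related genes where past the threshold or among the 3 largest and 3 most negative, except where a gene is not reported here. Numbers pair the libraries, since a number names 1 animal. Across genes, what set a library apart from its region's mean correlated with the same in the other library of that animal at a mean r of 0.345, from -0.0302 in animal 1022 to 0.572 in animal 1323. In fits without the block, p-values measure the spread between the libraries of a region and leave out the pairing by animal. With the block, and for the within-animal ratios, they measure the spread of the differences between these animals. Alternatives were the replicate block, DESeq2, other scalings, filters and prior counts, and each animal left out. The treatment groups were not compared, and no protein sequences were used here.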

Additional observations from a re-analysis of the deposited data

Results flagged for a closer look

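For each tested gene and each ratio, the highest and the lowest of the 6 libraries of a region were compared with the nearest library. Of 84 groups of 6, 11 had a library that stood apart by Dixon's criterion for 6 values, where chance gives about 1 in 20, and the measures are not independent of each other. Of the 11, the border zone of animal 1022 had 9. Its library had 456.7 CPM of ENO1, the alpha enolase, with 158.0 in the next border zone library. It was low in GAPDH (2487 CPM, next 6622), ENO3 (554.6, next 1958), PGAM2 (66.9, next 242.3), GYG1 (96.2, next 199.7) and PHKG1 (7.67, next 16.1). Its log2 ratio was 0.28 for ENO3 to ENO1 (next 3.78), -2.85 for LDHB to LDHA (next -0.88) and 1.71 for PFKM to PFKP (next 3.76). The same library had the lowest cardiomyocyte marker sum and the highest matrix marker sum, and their part in these values was not tested.

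Among the remote zone libraries, that of animal 1623 had 0.0763 CPM of HK3, which is 2 counts, with 0.728 CPM in the next library. The remote zone library of animal 3622 had 875.1 CPM of PYGB, with 1338 in the next.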

How the results depend on the processing

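Values under every alternative were compared with those reported. Of 441 values of single members, 405 had the same sign and stayed on their side of the threshold, 4 came past the threshold and 32 changed sign, in 13 members none of which was past the edgeR threshold. The genes past the threshold, 287 in all with 285 higher and 2 lower, numbered 41 (40 and 1) with the replicate block, 1551 (1545 and 6) with library totals, 1719 (1412 and 307) by DESeq2, 139 (138 and 1) with no filter and 149 (149 and 0) with at least 10 counts in every library. With each animal left out they numbered 0 to 519, 0 to 509 higher and 0 to 10 lower, with 0 by edgeR without animal 1623 or 3622, which left 2662 and 2448 genes at an unadjusted p under 0.05. The members past the threshold, 0 by edgeR, were 1 with library totals (PFKFB3, 1.94, edgeR adjusted p = 0.0379, the 1 higher) and 3 by DESeq2 (1 higher and 2 lower), and 0 with the replicate block and with each animal left out. The related genes past the threshold, 1 and higher, were 0 with the replicate block, 6 with library totals and 6 by DESeq2, all 6 higher, and 0 to 2 with each animal left out. Members higher in all animals, 0, were 2 with library totals and 0 to 3 with each animal left out, and members lower in all animals, 6, were 6 to 15, the 15 without animal 1322. Unpaired, the ratios of LDHB to LDHA (-1.10) and ENO3 to ENO1 (-1.56) had an adjusted p of 0.00866 in an exact permutation test. That test of the 12 libraries, with no replicate block, ignores the pairing by animal. The other ratios kept their side of the threshold, and PYGM to PYGB, near 0, ran from -0.0735 to 0.14 with each animal left out, -0.0458 without animal 1323.

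Sign changes with library totals gave SLC2A1 0.24, HK1 0.18, HK2 0.0659, GPI 0.0063, PFKL 0.16, PFKFB4 0.17, UGP2 0.10, GYS1 0.14, PHKA1 0.11 and PHKG1 0.0072. Some that kept their sign moved too, ALDOA to -0.36, TPI1 to -0.39, GAPDH to -0.48, PGK1 to -0.0522, PFKM to -0.27 and LDHB to -0.26. Among the positive ones ENO1 moved to 1.15 and LDHA to 0.83. With at least 10 counts SLC2A1 was 0.0090. With the replicate block HK2 was 0.38 and GYG1 -0.0456. By DESeq2 PFKP was -0.0093 and GYG1 -0.0441, with no filter -0.0159 and -0.0431, and with DESeq2 size factors GYG1 was -0.0338. With each animal left out, the ranges of those that changed sign were -0.0723 to 0.14 for GYG1, -0.30 to 0.13 for GYS1, -0.21 to 0.0321 for HK1, -0.41 to 0.71 for HK2, -0.0381 to 0.0999 for PFKP, -0.0395 to 0.19 for PGAM1, -0.27 to 0.0952 for PHKA1 and -0.0968 to 0.0126 for SLC2A1. Apart from the fewer genes or animals in some fits, the cause was not tested. Depth limits HK3, PFKFB1 and ENO2, each at 2 counts or fewer in some library.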
